A study of Homo sapiens with 8 samples.

Results

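The 9 genes described here serve glucose production and the response of the liver to fasting: PCK1, PC, FBP1, G6PC1, SLC37A4, PPARGC1A, CRTC2, TAT and IGFBP1. Their members are the probe sets (groups of short oligonucleotides summarised as 1 signal) that the platform annotation gives to exactly 1 of these symbols. There were 15 such probe sets of 54675 on the array, and they stood for 9 of 19775 genes. The cells were HepG2, a line from a human hepatocellular carcinoma. Cultures already deprived of serum were placed in serum-free medium with 3 µM quercetin, a plant flavonol, or in serum-free medium alone as control, and RNA was taken after 2, 4, 12 and 24 h. Each treatment and time had 1 array, 8 in all, so no condition had a replicate. Controls and treated cells alike had been starved of serum beforehand, for a time that the labels state differently for the series and the samples, and no array came from cells kept in serum.

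Gluconeogenesis makes glucose from lactate, amino acids and glycerol, and in fasting it is carried out mainly by the liver. It reverses most steps of glycolysis and bypasses the irreversible ones with its own enzymes. Glucagon and glucocorticoids raise transcription of these enzymes through CREB with its coactivators and through the glucocorticoid receptor, whereas insulin lowers it largely by excluding FOXO1 from the nucleus.

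The labelled cell type had its defining transcripts. The 8 hepatocyte markers on the array (ALB, AFP, APOA1, APOB, TF, SERPINA1, TTR and FGB) had mean log2 signals from 11.46 to 15.09. Of markers of other cells, 3 of 4 leukocyte, 1 of 4 endothelial and 3 of 5 fibroblast genes exceeded 7.43. This value is the median signal over the probe sets, and signal below it is called dim here. All but 1 of these markers had means of 9.23 or less. The exception was LYZ (13.99), a lysozyme that is also used as a leukocyte marker. The mean over leukocyte markers ranged over the arrays from 8.88 to 9.31, over endothelial markers from 6.90 to 7.28 and over fibroblast markers from 7.38 to 7.70. Array medians lay between 7.36 and 7.48, and the spread within arrays (SD) was 1.74 to 1.95. At 2, 4, 12 and 24 h the SD was 1.79, 1.74, 1.83 and 1.90 in the quercetin arrays, and 1.86, 1.74, 1.79 and 1.95 in the control arrays. The deposited arrays thus did not share 1 distribution, and the part of this in the changes with time was not tested. In the 18S and spike-in signals the arrays of the 2 h pair differed most. The quercetin array of that pair lay 3.44 above its control in the mean log2 signal of 3 probe sets for 18S rRNA, and 0.86 above it in the mean of 18 probe sets for bacterial spike-ins added at hybridisation. The part of these differences in the results at 2 h was not tested. The difference between 3′ and 5′ probe sets of ACTB, a sign of RNA integrity, differed most in the 12 h pair, with 0.88 in the quercetin and 1.40 in the control array.

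Promoters, taken as 250 bases before to 50 bases after a start site, were listed in RefSeq (GRCh38.p14) for 5 of the 9 genes: PC, FBP1, G6PC1, SLC37A4 and PPARGC1A. Those of G6PC1 and PPARGC1A are printed because both genes moved strongly with time. The G6PC1 promoter is at chr17:42900549-42900848 on the plus strand. Those of PPARGC1A, on the minus strand, belong to an upstream start site at chr4:24472856-24473155 and a downstream one at chr4:23881052-23881351. Capitals mark matches to the motifs searched, on either strand.
G6PC1: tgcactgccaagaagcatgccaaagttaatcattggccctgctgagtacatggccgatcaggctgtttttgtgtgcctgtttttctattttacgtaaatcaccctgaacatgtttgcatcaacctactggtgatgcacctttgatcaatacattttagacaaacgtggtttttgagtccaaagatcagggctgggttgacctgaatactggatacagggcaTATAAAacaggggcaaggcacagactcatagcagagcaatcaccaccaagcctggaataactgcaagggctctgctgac
PPARGC1A, upstream start: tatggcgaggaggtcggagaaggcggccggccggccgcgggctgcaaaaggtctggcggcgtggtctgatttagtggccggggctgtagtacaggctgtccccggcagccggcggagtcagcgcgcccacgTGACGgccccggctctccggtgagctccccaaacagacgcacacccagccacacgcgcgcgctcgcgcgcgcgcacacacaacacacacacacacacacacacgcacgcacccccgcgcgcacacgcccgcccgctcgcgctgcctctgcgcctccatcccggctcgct
PPARGC1A, downstream start: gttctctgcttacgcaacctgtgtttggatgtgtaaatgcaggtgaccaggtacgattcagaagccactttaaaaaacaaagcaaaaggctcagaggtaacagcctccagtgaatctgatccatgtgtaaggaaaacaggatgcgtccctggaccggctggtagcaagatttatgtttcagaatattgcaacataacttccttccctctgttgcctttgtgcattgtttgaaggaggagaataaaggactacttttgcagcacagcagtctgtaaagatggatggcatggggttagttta

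The motifs searched were the cyclic AMP response element that binds CREB (TGACGTCA, in 1.85% of all 35116 promoters), the core of that element (TGACG, which the whole element contains, 24.6%), the FOXO core (TGTTTAC, 3.42%), the insulin response element (TGTTTTG, 4.92%), the glucocorticoid hexamer (TGTTCT, 14.8%) and the TATA box (TATAAA, 11.5%). In G6PC1 the single match was a TATA box that begins 29 bases before the start site. The upstream PPARGC1A promoter held 1 cyclic AMP core, 119 bases before its start, and the downstream one held no match. The first of 3 listed promoters of PC (chr11:66958334-66958633, minus strand) held 3 such cores, which began 186, 160 and 111 bases before its start, and 2 glucocorticoid hexamers. A match in letters is not a bound site, and a window without one says nothing of the factor.

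Over time without serum, PCK1 and PPARGC1A rose to their highest signals at 24 h, in both treatments. G6PC1 fell at 4 and 12 h and stood near its 2 h signal again at 24 h, and IGFBP1 fell at 12 h. PC, FBP1, SLC37A4, CRTC2 and TAT were not called at any time against 2 h. Control signals moved with time too. The 3′ minus 5′ value of ACTB was 1.39 and 1.36 in the quercetin and control arrays at 24 h, against 1.11 and 0.88 at 2 h. The mean 18S signal was 12.01, 11.62, 7.29 and 9.16 in the quercetin arrays at 2, 4, 12 and 24 h, and 8.57, 11.52, 7.35 and 9.82 in the control arrays. The part of these signals in the changes with time was not tested. In the test across all genes, 8 of the 9 genes had signal above the limit. TAT was dim and takes its values from the test with dim genes kept. Calls are at an adjusted p under 0.05 from limma over 13298 genes, in a fit of time with treatment as an added term, so that each time is represented by 1 quercetin and 1 control array. At 4 h against 2 h, 1 of the 8 genes was called, G6PC1, which was lower, where 0.534% of all genes tested were called and 0.496% were called lower. At 12 h, 3 of 8 were called (all genes 3%). PCK1 was higher (all genes 1.68% higher), and G6PC1 and IGFBP1 were lower (all genes 1.32% lower). At 24 h, 2 of 8 were called, PCK1 and PPARGC1A, both higher, a share close to the 21.3% of all genes called and the 17.3% called higher. The median difference of the 8 genes was -0.43 at 4 h, -0.04 at 12 h and 0.28 at 24 h, beside -0.09, -0.05 and 0.09 for all genes. At 24 h cyclic loess put the median of all genes at -0.02 and quantile normalization put it at -0.03. Relative to the median of all genes as deposited PCK1 was 2.22 and PPARGC1A 1.20 higher. Of the genes called, the share that was higher at 24 h was 81.3% as deposited, 60.2% under cyclic loess and 57.2% under quantile normalization. Arrays of whole cultures cannot tell fewer cells of a kind from less RNA per cell.

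**Figure D1:**
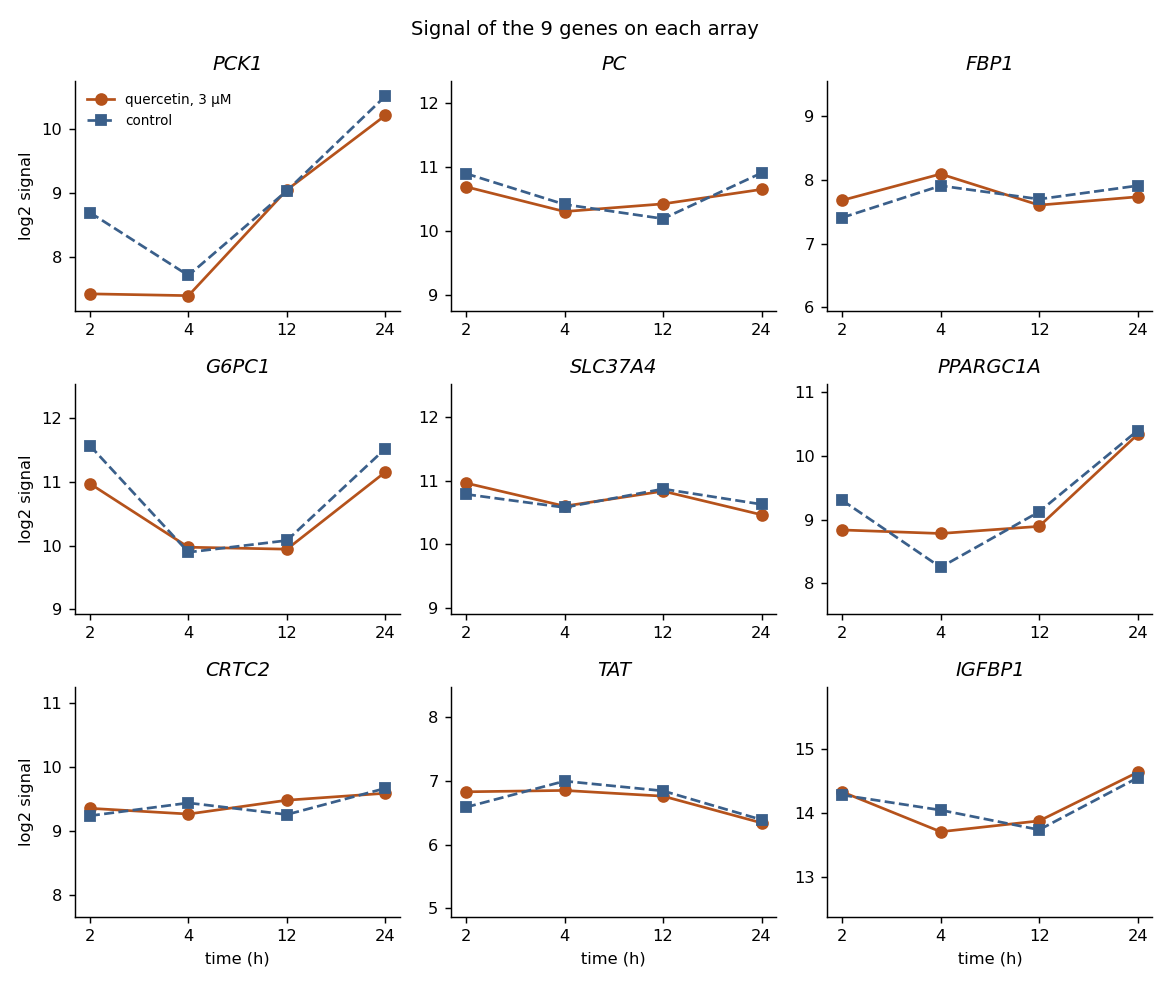
Log2 signal (vertical axis, spanning 3.6 log2 units in each panel) against time in hours (evenly spaced, not to scale) for the brightest probe set of each of the 9 genes. Circles with solid lines are single quercetin arrays and squares with dashed lines single control arrays; PCK1 spans 3.13 log2 units over the 8 arrays and CRTC2 0.43.

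PCK1 encodes cytosolic phosphoenolpyruvate carboxykinase, which turns oxaloacetate into phosphoenolpyruvate and is controlled mainly through its transcription. The log2 signal of its probe set, 208383_s_at, was 7.42, 7.39, 9.05 and 10.21 in the quercetin arrays at 2, 4, 12 and 24 h, and 8.69, 7.70, 9.03 and 10.52 in the control arrays. Both 24 h arrays lay above every earlier array, and the 4 h array was the lowest of its treatment in both. The difference of 24 h from 2 h was 2.31 ± 0.24 on the log2 scale (SE), a 4.97-fold rise (adjusted p = 1.38e-06), and it was 2.80 within the quercetin arrays and 1.83 within the control arrays. The rise was called in each of the 15 alternative settings that gave a value, with an adjusted p of at most 0.000285. At 12 h the difference was 0.99 ± 0.24 (adjusted p = 0.0248). That call was lost without the quercetin array at 2 h (0.45, adjusted p = 0.577) and without the quercetin array at 12 h (0.66, adjusted p = 0.227). It was also lost with eBayes without trend (adjusted p = 0.0674), with each probe set tested on its own (0.0772) and with averaged probe sets (0.0933). At 4 h the difference was -0.51 ± 0.24 (adjusted p = 0.265). Its size hinged on the 2 h pair: it was -1.04 without the quercetin array at 2 h and 0.03 without the control array at 2 h. Set against 4 h rather than 2 h, the 24 h signal was 7.10-fold higher in the quercetin arrays and 7.03-fold higher in the control arrays, a comparison chosen after the values were seen and not tested.

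G6PC1, the catalytic subunit of glucose-6-phosphatase, releases free glucose in the last step of gluconeogenesis. The brighter of its probe sets, 206952_at, had log2 signals of 10.97, 9.98, 9.95 and 11.16 in the quercetin arrays at 2, 4, 12 and 24 h, and 11.57, 9.90, 10.08 and 11.52 in the control arrays. All 4 arrays at 4 and 12 h lay below all 4 arrays at 2 and 24 h, as deposited and under each of the 3 other scalings. As deposited, 3 of the 8 genes tested had this order (G6PC1, PC and IGFBP1), beside 9.60% of all genes tested. The difference from 2 h was -1.34 ± 0.17 at 4 h (0.396 of the 2 h signal, adjusted p = 0.000833) and -1.26 ± 0.17 at 12 h (adjusted p = 0.000352). At 24 h it was 0.07 ± 0.17 (adjusted p = 0.818), and it turned to -0.17 under cyclic loess and to -0.19 under quantile normalization. From 12 to 24 h the signal differed by 1.33, or 2.51-fold, without a test.

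The other probe set of G6PC1, 1555612_s_at, did not follow this course. It had 8.61, 8.87, 8.65 and 8.63 in the quercetin arrays and 8.82, 8.61, 8.78 and 8.52 in the control arrays, a range of 0.35 against 1.67 for the brighter one. With the mean of both probe sets, the G6PC1 difference was -0.66 at 4 h (adjusted p = 0.201) and -0.63 at 12 h (0.0954), and neither was called. The call at 4 h was also lost without the control array at 2 h (-1.11, adjusted p = 0.0599) and without the control array at 4 h (-1.11, adjusted p = 0.0832).

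**Figure D2:**
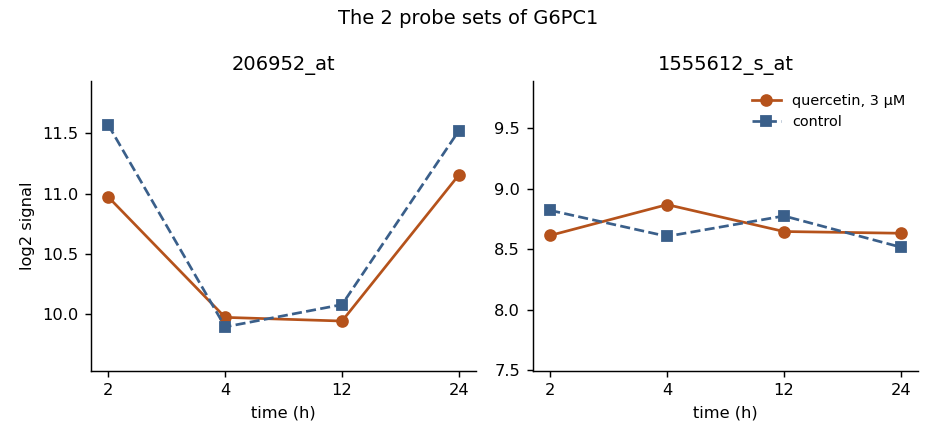
Log2 signal of each G6PC1 probe set against time in hours (evenly spaced, not to scale), with quercetin arrays as circles and control arrays as squares; both panels span 2.4 log2 units. The left probe set dips at 4 and 12 h in both treatments, and the right one stays between 8.52 and 8.87.

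SLC37A4, the transporter that brings glucose 6-phosphate into the endoplasmic reticulum for G6PC1 to cleave, varied little. Its brighter probe set lay between 10.47 and 10.96 over the 8 arrays and its other one between 9.09 and 9.67. At 24 h against 2 h it differed by -0.33 ± 0.16 (adjusted p = 0.147). The difference was called under cyclic loess (-0.57, adjusted p = 0.0104) and under quantile normalization (-0.58, adjusted p = 0.0106). At 4 h the difference was -0.28 ± 0.16 (adjusted p = 0.355) and was not called. Over the settings that kept all 8 arrays it ran from -0.33 to -0.06.

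PC, pyruvate carboxylase, makes oxaloacetate from pyruvate in mitochondria and so begins the pathway. Its log2 signal was 10.69, 10.30, 10.42 and 10.65 in the quercetin arrays at 2, 4, 12 and 24 h, and 10.90, 10.42, 10.19 and 10.91 in the control arrays. As deposited, all arrays at 4 and 12 h lay below all arrays at 2 and 24 h, and the range was 0.72. This order was lost under cyclic loess and quantile normalization, which put 24 h minus 4 h at -0.02 and -0.07, against 0.42 as deposited. The differences from 2 h were -0.44 ± 0.17 at 4 h (adjusted p = 0.172) and -0.49 ± 0.17 at 12 h (0.120), and neither was called. The 12 h difference was called without the quercetin array at 12 h (-0.70, adjusted p = 0.0324). FBP1, fructose-1,6-bisphosphatase, reverses the phosphofructokinase step. It was close to the limit of dim signal, with 7.41 to 8.09 over the 8 arrays, and its largest difference from 2 h was 0.46 ± 0.19 at 4 h (adjusted p = 0.220).

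PPARGC1A encodes a transcriptional coactivator that fasting induces in liver and that raises gluconeogenic genes together with FOXO1 and HNF4A. Its log2 signal was 8.84, 8.78, 8.90 and 10.34 in the quercetin arrays at 2, 4, 12 and 24 h, and 9.31, 8.25, 9.12 and 10.40 in the control arrays. Both 24 h arrays lay above all earlier ones by at least 1 log2 unit. The difference of 24 h from 2 h was 1.30 ± 0.21, a 2.46-fold rise (adjusted p = 0.000198), with 1.50 in the quercetin and 1.09 in the control arrays. It was called in all 16 alternatives, and its adjusted p was highest, at 0.0353, with the mean of its probe sets (0.56). The second probe set was dim, between 5.59 and 6.26. At 4 and 12 h PPARGC1A differed from 2 h by -0.55 ± 0.21 (adjusted p = 0.175) and -0.06 ± 0.21 (0.916).

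CRTC2, the coactivator that joins CREB when glucagon signals, moved by 0.43 over the 8 arrays, from 9.24 to 9.67. Its 24 h arrays (9.59 with quercetin and 9.67 in control) lay above the other 6. The difference from 2 h was 0.33 ± 0.18 (adjusted p = 0.208). Both 24 h arrays lay above the other 6 for 4 of the 8 genes tested, PCK1, PPARGC1A, CRTC2 and IGFBP1, beside 29.6% of all genes tested. This count was as deposited. It was 2 under cyclic loess (PCK1 and PPARGC1A), beside 18.3% of all genes, and 3 under quantile normalization (IGFBP1 as well), beside 16.1%.

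IGFBP1 encodes a secreted protein that binds insulin-like growth factors, and insulin strongly represses its gene. Its log2 signal was 14.33, 13.70, 13.87 and 14.64 in the quercetin arrays at 2, 4, 12 and 24 h, and 14.28, 14.04, 13.73 and 14.55 in the control arrays. As deposited, the 4 arrays at 4 and 12 h lay below the 4 arrays at 2 and 24 h, an order that was lost under cyclic loess. The signal is near the upper end of the scale, whose highest value on any array was 15.31. IGFBP1 differed from 2 h by -0.43 ± 0.10 at 4 h (adjusted p = 0.0587), -0.50 ± 0.10 at 12 h (0.00995) and 0.29 ± 0.10 at 24 h (0.0514). The 4 h difference was called under median centring (adjusted p = 0.0483) and without the quercetin (0.00138) or the control (0.00152) array at 12 h. The 24 h difference was called with the filter at the 75th percentile (adjusted p = 0.0432), under median centring (0.0219) and without the quercetin (0.00472) or the control (0.00494) array at 12 h. The 12 h call was lost without the quercetin array at 2 h (-0.46, adjusted p = 0.222), after cyclic loess (-0.31, adjusted p = 0.0825), with eBayes without trend (adjusted p = 0.179) and with the mean of probe sets (-0.20, adjusted p = 0.529). Its other probe set was dim, at 5.76 to 6.41. TAT, tyrosine aminotransferase, which starts tyrosine breakdown and is a classical glucocorticoid-induced gene of liver, was below the limit in the mean of each of its 3 probe sets, which ranged from 6.20 to 7.08. Its brightest probe set differed by -0.34 ± 0.17 at 24 h against 2 h (adjusted p = 0.201). The others, 206916_x_at and 214413_at, did not go that way, with 0.23 and 0.01.

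**Figure D3:**
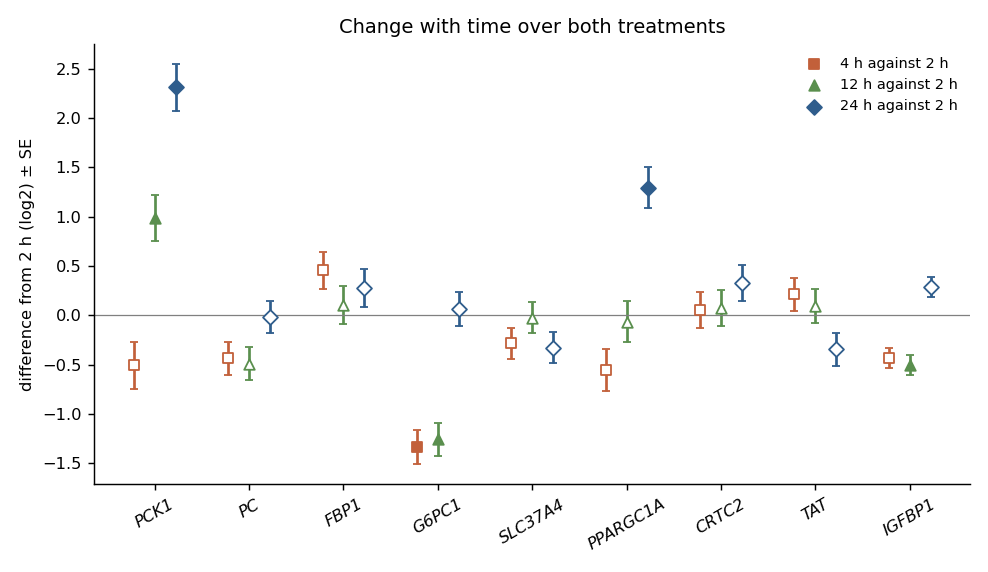
Difference of 4, 12 and 24 h from 2 h on the log2 scale, with its SE, for each gene in the fit of all 8 arrays. Filled marks are called at an adjusted p under 0.05 and open marks are not; PCK1 reaches 2.31 at 24 h and G6PC1 lies at -1.34 and -1.26 at 4 and 12 h. TAT is from the fit with dim genes kept.

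Quercetin against control gave no called gene among these. Over the 4 times 0 of 13298 genes were called (0%, smallest adjusted p = 0.116), and 785 (5.90%) had an unadjusted p under 0.05. PCK1 had the most negative mean difference of the 9 genes. It differed by -1.28, -0.32, 0.01 and -0.30 at 2, 4, 12 and 24 h, a mean of -0.47 ± 0.17 (95% interval, unadjusted, -0.82 to -0.12; adjusted p = 0.844). This SE and interval draw mostly on spread shared between genes, and the SD of the 4 PCK1 differences themselves was 0.56. Without the 2 h pair the PCK1 mean was -0.20, so the size rests largely on that pair. PCK1 was also the only one of the 8 genes tested to differ by at least 1 at 2 h, where 0.474% of all genes did. Its 2 h value was -1.34 under median centring, -1.25 under cyclic loess and -1.30 under quantile normalization. Between these arrays the 18S signal was 3.44 higher with quercetin and the spike-in signal 0.86 higher, and their part in the PCK1 result was not tested. The PCK1 difference has no replicate at that time.

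G6PC1 differed by -0.60, 0.08, -0.14 and -0.37 at 2, 4, 12 and 24 h, a mean of -0.26 ± 0.12 (95% interval, unadjusted, -0.51 to -0.003; adjusted p = 0.844). The SD of these 4 differences was 0.29, and this interval too draws mostly on spread shared between genes. The G6PC1 mean was -0.14 without the 2 h pair and -0.12 with averaged probe sets, and its other probe set had a mean difference of 0.01. PPARGC1A had opposite signs at 2 h (-0.47) and 4 h (0.53), and -0.23 and -0.06 later, with a mean of -0.06 ± 0.15. IGFBP1 differed by 0.05, -0.34, 0.14 and 0.09, with a mean of -0.02 ± 0.07 (95% interval -0.17 to 0.14). The means of PC, FBP1, SLC37A4, CRTC2 and TAT lay between -0.09 and 0.05, and the widest of their 95% intervals ran from -0.23 to 0.33, for FBP1. As deposited, none of the 8 genes had the same sign at all 4 times, beside 13.8% of all genes tested. PCK1 was lower at all 4 times under each of the other scalings, where its 12 h value was -0.01 under median centring, -0.02 under cyclic loess and -0.02 under quantile normalization. At 24 h, 7 of the 8 genes were lower with quercetin as deposited, and 5 were after cyclic loess or quantile normalization. Most genes were lower too: as deposited, 4496 of all 13298 genes tested were higher with quercetin at 24 h, beside 1 of the 8. Under the other scalings this count was not made over all genes. The median of the 8 was -0.17 at that time and that of all genes -0.10.

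**Figure D4:**
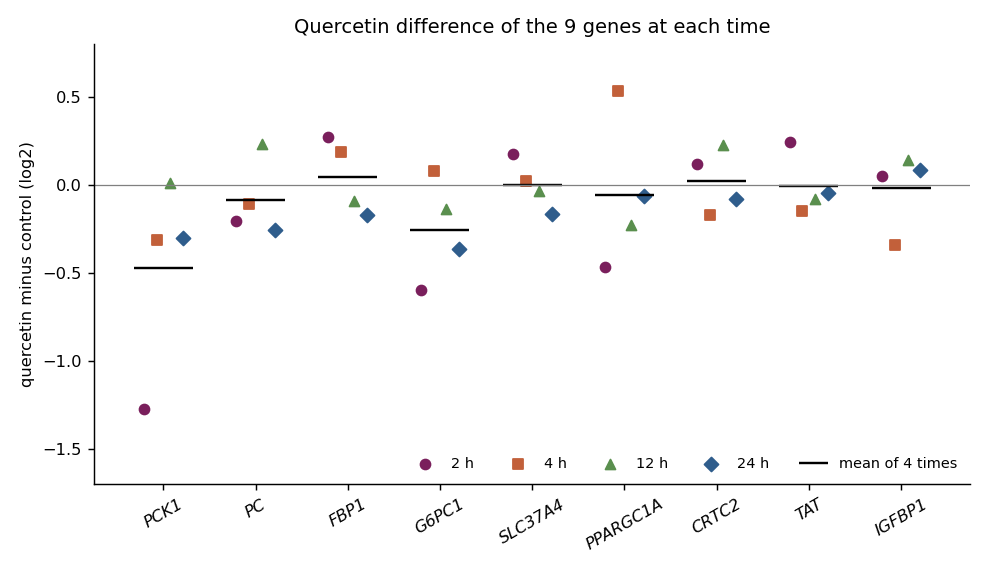
Quercetin minus control on the log2 scale for each gene at 2, 4, 12 and 24 h (1 array against 1 array), with the mean of the 4 times as a bar. PCK1 at 2 h, at -1.28, lies farthest from 0. As deposited each gene has points on both sides of 0, but for PCK1 the 12 h point (0.01) is below 0 under each of the 3 other scalings.

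Whether the quercetin difference changed between 2 and 4 h on one side and 12 and 24 h on the other was tested in a second fit. None of the 8 genes was called (all genes 0.368%). The late minus early value was 0.65 ± 0.31 for PCK1 and 0.26 ± 0.12 for IGFBP1, with an adjusted p of 0.9999 for both. Without the 2 h pair the PCK1 value was 0.17, and without the 4 h pair it was 1.13.

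Lists of related genes were set beside the members. Quercetin against control called 0 genes in any of the 7 lists, and 4 h against 2 h also called 0. Of 18 genes tested for other gluconeogenic steps, 3 were called higher and 0 lower at 24 h against 2 h, a share near the 17.3% of all genes called higher. GOT1, the cytosolic aspartate aminotransferase that helps carry oxaloacetate out of mitochondria, rose most (1.04 ± 0.16, 2.05-fold). PGM2 (0.67) and PGM1 (0.38), phosphoglucomutases, were also called, in 10 and 5 of 16 alternatives. PGM2 was uncalled without the quercetin array at 2 h or either array at 24 h, and PGM1 without any single array at 2, 4 or 24 h. The median of this list turned from 0.09 to -0.05 under cyclic loess and quantile normalization, where 1 gene was called higher under both, and 2 and 1 were called lower. MPC1, a subunit of the mitochondrial pyruvate carrier, was called lower at 12 h (-0.51), 1 of the 18 genes, beside 1.32% of all genes. That call was kept in 3 of 16 alternatives, and without the quercetin array at 2 h the value was -0.33 (adjusted p = 0.521). Of 10 reversible enzymes shared with glycolysis, 0 were called at any time, beside 0.534%, 3% and 21.3% of all genes at 4, 12 and 24 h. Of 10 opposing glycolytic steps, 1 was called higher and 0 lower at 24 h, beside 17.3% and 3.98% of all genes. It was HK2, a hexokinase (1.37 ± 0.23), which was not called with the mean of its probe sets (0.23, adjusted p = 0.369).

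Among 37 genes of hormone signalling and gluconeogenic regulators, 8 were called higher and 1 lower at 24 h against 2 h, also near the 17.3% of all genes called higher. The counts were 4 and 2 after either cyclic loess or quantile normalization. NR0B2, an orphan receptor that represses HNF4A targets, rose (1.32 ± 0.18, 2.49-fold), as did SIRT1, a deacetylase that acts on PPARGC1A (1.11 ± 0.22), SIK2, a kinase that keeps CRTC2 out of the nucleus (0.87 ± 0.18), and FOXO3 (0.72 ± 0.14). Without the quercetin array at 2 h, SIRT1 (0.85, adjusted p = 0.0574) and SIK2 (0.67, adjusted p = 0.0637) were not called. With averaged probe sets SIK2 (0.36, adjusted p = 0.115) and FOXO3 (0.36, adjusted p = 0.108) were not called. CEBPA, a liver transcription factor that also drives gluconeogenic genes, fell. Its log2 signal was 12.03, 11.75, 11.40 and 10.67 in the quercetin arrays at 2, 4, 12 and 24 h, and 12.13, 11.58, 11.01 and 10.58 in the control arrays. CEBPA thus declined at each step in both treatments, by 1.45 ± 0.15 on the log2 scale from 2 to 24 h (adjusted p = 1.38e-06), while PCK1 and PPARGC1A rose. INSR, the insulin receptor, fell at 12 h (-1.29 ± 0.25) and differed by -0.13 at 24 h (adjusted p = 0.761). Its 12 h call was lost without the quercetin array at 2 h (-0.79, adjusted p = 0.277) and with averaged probe sets (-0.52, adjusted p = 0.134). CEBPA (-0.87) and CEBPB (-0.59) were also called lower at 12 h, which made 3 of the 37 genes, beside 1.32% of all genes. The CEBPB call was kept in 8 of 16 alternatives. Among others, it was lost without the quercetin array at 2 h or the control array at 2 or 12 h. At 24 h CEBPB was instead called higher than at 2 h (0.44, adjusted p = 0.0299), also in 8 of 16 alternatives.

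Of 14 genes of amino acid breakdown and the urea cycle, 1 was called higher and 1 lower at 24 h. Of all genes, 17.3% were called higher and 3.98% lower at that time. ARG1, arginase, rose 3.05-fold (1.61 ± 0.19) and FAH, which ends tyrosine breakdown, fell (-0.56 ± 0.17). FAH was not called when any 1 of the 4 arrays at 2 and 24 h was left out (-0.71 to -0.41). After cyclic loess 2 were higher and 3 lower. Of 9 other fasting and glucocorticoid targets, 3 were called higher and 0 lower at 24 h, beside the same 17.3% and 3.98% of all genes. DDIT4 (1.25 ± 0.20) and SESN1 (1.19 ± 0.19), both stress-induced inhibitors of mTORC1, were also called at 12 h (1.08 and 0.89). At 12 h, 1.68% of all genes were called higher. The 12 h call was lost for both without the quercetin array at 12 h. For DDIT4 it was also lost without the control array at 2 h and with averaged probe sets (adjusted p = 0.0661). For SESN1 it was also lost without the quercetin array at 2 h. ANGPTL4, a secreted lipase inhibitor, rose at 24 h (0.85 ± 0.22), but was not called without the control array at 24 h (0.41, adjusted p = 0.353) or without the control array at 2 h (0.57, adjusted p = 0.146). Of 9 genes of the insulin-like growth factor system, 1 was called higher at 24 h (all genes 17.3%) and 1 lower at 12 h (all genes 1.32%). IGFBP3, the main carrier in serum, was higher at 24 h (1.16 ± 0.19). IGF1R, the receptor, was lower at 12 h (-0.80 ± 0.20). The IGF1R call was kept in 9 of 16 alternatives, and not without the control array at 2 or 12 h. At 24 h the calls for GOT1, NR0B2, CEBPA, DDIT4, SESN1 and IGFBP3 were kept in all 16 alternatives run.

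The members were also compared by the shape of their signal over the 8 arrays, each gene centred on its own mean. Likeness was the root mean square difference between centred log2 values, which is smaller for genes of small range. The genes tested that lay nearest to PCK1 were RORA (0.29), NCEH1 (0.29) and HERC4 (0.30), where PCK1 ranged over 3.13. Nearest to PPARGC1A, with a range of 2.14, were ZNF277 (0.13), PUS10 (0.13) and DENND4A (0.14). Nearest to G6PC1, with a range of 1.67, were PLPPR1 (0.25), TNS1 (0.25) and PRAG1 (0.27). Among the members, PC and IGFBP1 were the closest pair (0.18). The arrays are shared by all these profiles, so this is a description only.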

How the data were processed

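RNA from HepG2 cells was measured on 8 Affymetrix 3' expression arrays, 1 per treatment and time. The authors deposited log2 signals from 4.56 to 15.31 in a single table of 54675 probe sets. Per the submitters' processing notes these came from RMA, whose version and settings were not given in the sources used here. Background is unknown. Having 8 arrays limits precision. Probe sets were named from the platform annotation. Of them, 41097 had 1 symbol, 1801 had several and were not named, and 11777 were not listed. For 41043 probe sets the current symbol came from the Entrez identifier.

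For each gene the probe set of highest mean was kept. Genes whose mean exceeded 7.43, the median probe set, numbered 13298. They entered limma 3.58.1 under R 4.3.3 (linear models, eBayes with trend, Benjamini-Hochberg over all genes tested, threshold 0.05). One fit held time and treatment (3 residual degrees of freedom). The other added treatment by late time (2 degrees). The labels name no separate cultures or batches, so p-values of the first fit concern variation over these arrays only. The spread in that fit came in part from a gene's own residuals and for the greater part from the trend over all genes. Its SEs and 95% intervals rest on the same spread, so they can be narrower than a gene's own values would give. In the second fit eBayes took the spread of a gene wholly from the trend over all genes at its signal. The gene's own residuals did not enter it, so those p-values do not measure its observed spread. A log2 difference of 1 was counted as large at single times. The code was tested on simulated data. Members, lists and the naming rule (all members, and up to 4 called genes per list, direction and comparison) were chosen with earlier results of these data known. The 24 h call of CEBPB is given beyond that rule, beside its 12 h call, while larger ones (IRS1 and CREBBP) are left out. Alternatives changed the filter, probe set, normalization and moderation, or left out pairs or arrays.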

Additional observations from a re-analysis of the deposited data

Results flagged for a closer look

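No group had the 4 arrays needed to look for an outlying array. The tested difference between late and early quercetin effects was past the threshold for 4 genes of the pathway lists, none of them a member. The 4 were 2 of 10 opposing glycolytic steps, 1 of 37 hormone signalling and regulator genes and 1 of 9 insulin-like growth factor genes. Over all genes tested the share called was 0.368%. These p-values are from the second fit, in which a gene's own residuals did not enter. The late minus early value was 1.11 for HK2, 0.70 for PKM, which makes pyruvate in glycolysis, 1.18 for EP300, a coactivator of CREB, and 0.89 for IGF1R. Without the 12 h pair it was 0.92, 0.18, 0.79 and 0.67 in the same order. Of 12 alternatives, 5 kept the call for HK2, 4 for PKM, 4 for EP300 and 2 for IGF1R. The adjusted p reached 0.9999 in at least 1 alternative for each of the 4. All 4 were uncalled after cyclic loess, after quantile normalization and with eBayes without trend.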

How the results depend on the processing

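Every fit held time as a term, so quercetin and control arrays were compared within each time. Beyond that, by replicate number, no paired analysis was possible because all arrays are numbered 1. Left-out single arrays leave their time with 1 array, assumed to vary like the others. Of 1008 recomputed values, 818 kept direction and side of the threshold. This total mixes members, most of them uncalled, with list genes that entered only where they were called. Some settings also leave a difference itself unchanged, such as another moderation or a left-out array of another time. The total is thus no measure of how firm the calls are. By comparison, 88 of 104 were kept for quercetin, 130 of 140 at 4 h, 194 of 252 at 12 h, 369 of 441 at 24 h and 37 of 71 for late against early. The number of genes called at 4 h against 2 h was 71, against 39 with no filter, 0 with the mean of probe sets (1453 at an unadjusted p under 0.05), 3 with every probe set on its own, 9 after cyclic loess, 22 after quantile normalization and 4 without trend, and 2 to 862 with an array left out. At 12 h it was 399, against 65 with averaged probe sets and 161 without trend, and 52 to 607 with an array left out. At 24 h it was 2831, against 1525 and 4597 with the mean of probe sets and with every probe set, and 952 to 3230 with an array left out. For late against early quercetin effects it was 49, against 15 with no filter, 1 with the mean of probe sets, 141 with every probe set, 30 after median centring, and 0 after cyclic loess, after quantile normalization and without trend (621, 624 and 477 at an unadjusted p under 0.05 in limma), and 8 to 162 with a pair left out. For quercetin it was 0, and 0 to 1 with a pair left out. The share of calls that were higher was 7.04% at 4 h (44.4% after cyclic loess, 40.9% after quantile normalization) and 55.9% at 12 h (70.0% after median centring, 66.1% after cyclic loess, 68.8% after quantile normalization). Signs turned for small values. For quercetin these were SLC37A4 (0.063 after cyclic loess, 0.057 after quantile normalization), PPARGC1A (0.0075 after quantile normalization), CRTC2 (-0.0015 after median centring) and IGFBP1 (0.017 with averaged probe sets). At 12 h they were SLC37A4 (0.018, 0.022 and 0.047 after median centring, cyclic loess and quantile normalization), and with the mean of probe sets PPARGC1A (0.028) and TAT (-0.10). At 24 h they were PC (0.043 after median centring) and G6PC1 (-0.038 with the mean of probe sets, -0.17 after cyclic loess, -0.19 after quantile normalization). IGFBP1 in the late against early comparison was -0.066 with probe sets averaged. With pairs left out, quercetin values ran from -0.028 to 0.12 for FBP1, -0.059 to 0.054 for SLC37A4, -0.25 to 0.080 for PPARGC1A, -0.045 to 0.088 for CRTC2, -0.093 to 0.037 for TAT and -0.068 to 0.092 for IGFBP1. With single arrays left out, 4 h values ran from -1.04 to 0.029 for PCK1 and -0.075 to 0.19 for CRTC2, and 24 h values from -0.13 to 0.099 for PC and -0.16 to 0.30 for G6PC1. The 12 h values ran from -0.042 to 0.26 for FBP1, -0.14 to 0.096 for SLC37A4, -0.33 to 0.21 for PPARGC1A, -0.062 to 0.21 for CRTC2 and -0.073 to 0.26 for TAT. The cause was not tested for any of these.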
